A study of Mus musculus with 7 samples.

Results

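Major histocompatibility complex (MHC) class II genes were followed in regulatory T cells, a CD4 lineage defined by the factor Foxp3 that holds other lymphocytes in check. The 7 genes were chosen by symbol from the 39179 genes of the authors' deposited table: Cd74, Ciita, H2-Aa, H2-Ab1, H2-Eb1, H2-DMa and H2-DMb1, and all 7 were found. Cells positive for CD4, TCRb and Foxp3 and high for CD25 were sorted from lymph nodes of C57BL/6 mice aged 3 weeks. The series compared double-knockout (dKO) mice, labelled Id2fl/flId3fl/flFoxp3cre, with control mice, labelled Id2fl/+Id3fl/+Foxp3cre. The series' design text writes the Cre of the dKO mice as Foxp3Cre/Cre. Both groups thus carry a Cre recombinase driven from Foxp3, and the controls keep 1 unfloxed allele of Id2 and of Id3, which encode inhibitors of E protein transcription factors. The replicated comparison had 3 dKO and 2 control libraries. A separate pair had 1 library of each title. For the pair, titles and genotype tags contradict each other, so its libraries are named by title as the library labelled control or the one labelled dKO. By the tags, every direction given for the pair would be turned. The labels do not say whether libraries come from separate mice. The p-values therefore reflect variation among libraries, which could be technical.

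MHC class II molecules carry peptides to the cell surface for CD4 T cells to read. Each is a pair of an alpha and a beta chain, assembled with the invariant chain (Cd74), a fragment of which is later exchanged for peptide by the H2-DM protein, while H2-O restrains H2-DM. Dendritic cells, macrophages and B cells are the classical expressing cells. Transcription of these genes depends on the coactivator CIITA, which is recruited by factors bound to conserved promoter elements called the X and Y boxes. Mouse T cells are known to make little of the surface chains.

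The X and Y boxes are shown here because they are the sequence that the class II genes have in common. RefSeq promoter sequences (GRCm38.p6) were at hand for 8 of 11 class II genes, among them 4 of the 7 members. The letters CTNGNAAC, taken for the start of the X box, followed on the same strand within 45 bases by ATTGG, the core of the Y box, were searched on both strands in the 250 bases before each start site. These letters were chosen after the sequences had been seen. The pair of letters was present in 4 of the 8 genes, against 0.429% of 32851 promoters of the same length. In the stretches below, capitals mark both sets of letters.
H2-Aa, chr17:34287852-34287917, minus strand: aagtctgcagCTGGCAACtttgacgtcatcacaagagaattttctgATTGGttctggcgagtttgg
H2-Eb1, chr17:34305763-34305827, plus strand: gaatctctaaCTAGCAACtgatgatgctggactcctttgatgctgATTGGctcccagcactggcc
H2-DMb1, chr17:34153084-34153149, plus strand: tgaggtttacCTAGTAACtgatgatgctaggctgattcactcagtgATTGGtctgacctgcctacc
H2-Ob, chr17:34238805-34238867, plus strand: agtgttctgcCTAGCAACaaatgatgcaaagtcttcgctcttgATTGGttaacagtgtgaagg
Between the sets of letters lay 28 bases in H2-Aa and H2-DMb1, 27 in H2-Eb1 and 25 in H2-Ob. The ATTGG ended 43 to 56 bases before the start site in these genes. A match is a description of the letters and not a measured binding site. The genes H2-Oa, H2-DMa, H2-DMb2 and H2-Eb2 lacked this arrangement in the windows searched. The H2-DMa windows lie upstream of the gene start given in the deposited table. The H2-DMb2 window, from 34144999, lies inside that gene, which starts at 34143307 in the deposited table. By that table the H2-DMb1 stretch lies just inside the gene, which starts there at 34153072.

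None of the 7 members passed the authors' test at an adjusted p of 0.05 (DESeq, per the submitters' processing notes), where 6.56% of the 31641 genes tested did, or 13.3% of the 15446 genes whose mean was at least 10. At an unadjusted p under 0.05, 1 member (Cd74, lower in dKO) passed, against 13.5% of all genes. The members' median log2 ratio of dKO over control was 0.05, against -0.01 for genes averaging at least 10, and 3 of the 7 were below 0. Levels in the replicated comparison are the authors' group means in scaled counts, that is reads after division by the size factor of their library, and have no SD in the deposited table. The scaled counts summed to 3.90e+07 in control and 3.99e+07 in dKO, and the size factors recovered from low genes (1.29 and 1.09 in control, 0.929, 0.910 and 0.860 in dKO) make the control libraries 1.32 times deeper on average. Id2 stood at 783 scaled counts in control against 61.1 in dKO in the authors' deposited table (adjusted p 1.48e-08), and in the pair 18.6 FPKM in the library labelled control and 9.69 in the library labelled dKO. Mzb1 and Ctla4, which rose in the authors' deposited table (log2 6.34 and 1.01), also ran the way of the titles, with 0.676 against 53.8 FPKM and 182 against 408 FPKM in the libraries labelled control and dKO. Id3 had 160 against 221 FPKM in these libraries. Its log2 fold change in the authors' deposited table had the other sign, -0.63, but did not pass the DESeq test (adjusted p 0.209).

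The members fell into separate levels. Per kilobase of exon, Cd74 had 1988 scaled counts in control against 1264 in dKO, and H2-DMa had 1141 and 885. H2-Eb1 (34.6 and 49.4), H2-DMb1 (27.3 and 19.997), H2-Ab1 (25.2 and 32.3) and H2-Aa (20.02 and 24.4) were far lower, and Ciita, with 2.99 and 3.09, was lowest. Thus the invariant chain and the H2-DM alpha chain were abundant while the surface chains they serve were far lower. The order of these 4 genes between Cd74 and H2-DMa above and Ciita below was not the same in control and dKO, and the group means carry no spread by which to separate them. Cd74 exceeded H2-Ab1 by a factor of 79.0 in control and 39.2 in dKO on this scale. In FPKM, the fragments per kilobase of transcript, scaled to the depth, used for the pair, the factor was 37.3 in the library labelled control and 11.2 in the library labelled dKO. The class I heavy chain gene H2-K1, by comparison, exceeded H2-Ab1 by a factor of 2324 in control and 1693 in dKO.

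**Figure D1:**
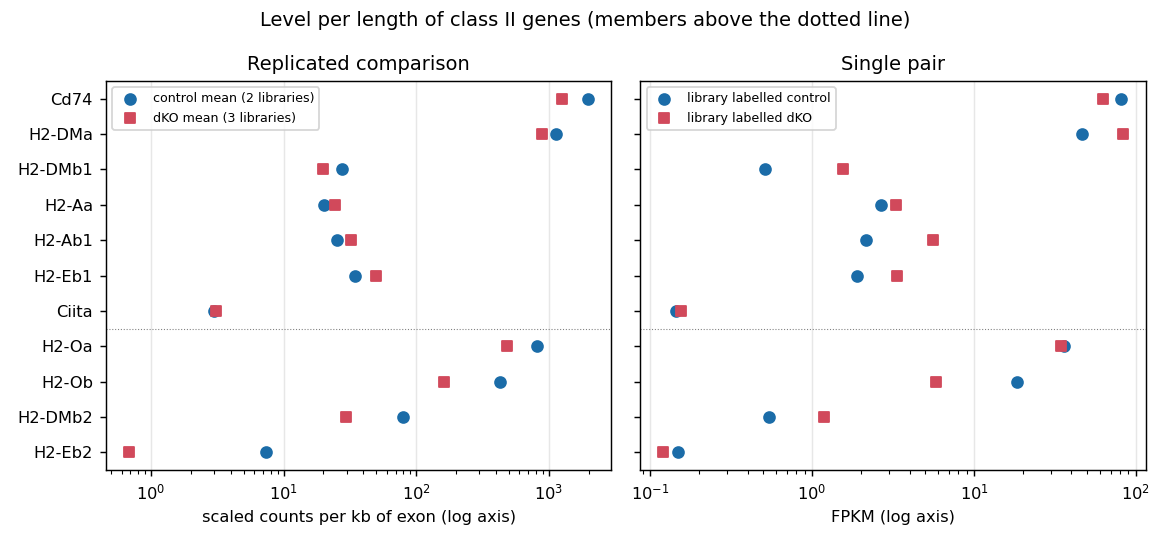
Levels of 7 member genes and 4 further class II genes, as scaled counts per kilobase of exon for the control and dKO means (left) and FPKM for the 2 libraries of the pair (right), both on log axes. Cd74 and H2-DMa stand above the other members in both panels, and Ciita is the lowest member in both.

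Cd74 (ENSMUSG00000024610, chromosome 18, 60803848 to 60812646, GRCm38), the invariant chain, had a mean of 2803 scaled counts in the 2 control libraries and 1782 in the 3 dKO libraries of the authors' deposited table. The log2 fold change was -0.65, with an unadjusted p of 0.0174 and an adjusted p of 0.178, so the difference did not pass. The adjusted p was 0.0885 when the adjustment took in only genes averaging at least 10. In the pair, Cd74 summed over both transcript entries had 80.6 FPKM in the library labelled control and 62.6 in the library labelled dKO, a log2(FPKM + 1) difference of -0.36. The more abundant of the 2 entries had 66.5 and 56.6 FPKM, and the other had 14.1 and 6.06. Both entries were lower in the library labelled dKO, and the authors' deposited q-value was 0.998 for each. The gene overlaps the microRNA gene Mir5107, which was listed at 0 in control and 0.388 in dKO.

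The chains of the surface molecules had few reads. H2-Aa (ENSMUSG00000036594, chromosome 17, 34282744 to 34287827), the alpha chain of the I-A molecule, had 40 reads in the deeper control library and 48 in the other, which are 31.1 and 43.9 scaled counts. Its dKO mean of 45.7 lay just above both, and the authors' deposited log2 fold change was 0.29 (unadjusted p 0.764). H2-Ab1 (ENSMUSG00000073421, 34263209 to 34269418), the beta chain of I-A, had 60 and 39 reads in the control libraries, or 46.6 and 35.7 scaled counts. The dKO mean of 52.8 was above both, with a deposited log2 fold change of 0.36 (unadjusted p 0.607). H2-Eb1 (ENSMUSG00000060586, 34305883 to 34316199), the beta chain of I-E, had 60 and 38 reads, or 46.6 and 34.8 scaled counts, and a dKO mean of 58.2 (log2 0.51, unadjusted p 0.347 in the authors' deposited table).

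How often a dKO mean lies above both control libraries over all genes was not counted, so that position is only a description. None of the 3 surface chain genes passed the test. Their log2 ratios depended on which control library was used: without the deeper or without the other one they were 0.06 and 0.56 for H2-Aa, 0.56 and 0.18 for H2-Ab1, and 0.74 and 0.32 for H2-Eb1. In each of them the dKO mean lay inside the exact 95% Poisson interval of 1 control library and above that of the other, for H2-Aa 32.4 to 58.3 and 22.2 to 42.3 scaled counts. These intervals cover counting error only. The sum of the 3 genes came to 119 scaled counts for control against 157 for dKO (log2 ratio 0.39). In the pair the same 3 genes were also higher in the library labelled dKO. H2-Aa went from 2.65 FPKM in the library labelled control to 3.28 in the library labelled dKO, H2-Ab1 from 2.16 to 5.58 and H2-Eb1 from 1.89 to 3.35. Their log2(FPKM + 1) differences were 0.23, 1.06 and 0.59. On this scale H2-Ab1 was the single member past 2-fold in that direction, of 6 members with 1 FPKM or more in a library, where 3.12% of 10776 genes were. No member was past 2-fold in the other direction (3.25% of genes), so 1 member was past it in either direction (6.37%). The count depends on the pseudocount of 1 FPKM. With 0.1 FPKM it was 2, and the share of all genes was not counted at that setting. H2-DMb1 had 0.513 FPKM in the library labelled control and 1.56 in the library labelled dKO. The pair has 1 library per title and gives no test of the genotypes. The E alpha gene, listed as H2-Ea-ps, had 0 reads in all 5 numbered libraries, which allows up to 1.37 scaled counts in control and 1.16 in dKO if 3 reads per group are taken as the limit. The b haplotype of C57BL/6 mice is known to make no E alpha chain.

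Depth limits what could be called at this level. Among 2433 genes with a mean of 20 to 80 scaled counts, 10.1% passed the test, and the smallest log2 fold change among them was 0.84 in size, with a median of 1.61. The differences of the 3 surface chain genes and of H2-DMb1 were all smaller than that. Of 6673 genes whose mean was at least 1000, the range of Cd74 and H2-DMa, 13.4% passed. The smallest called change among them was 0.38 in size, with a median of 0.63. Cd74, at -0.65, was beyond that median in size without passing, and H2-DMa, at -0.37, was below the smallest.

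**Figure D2:**
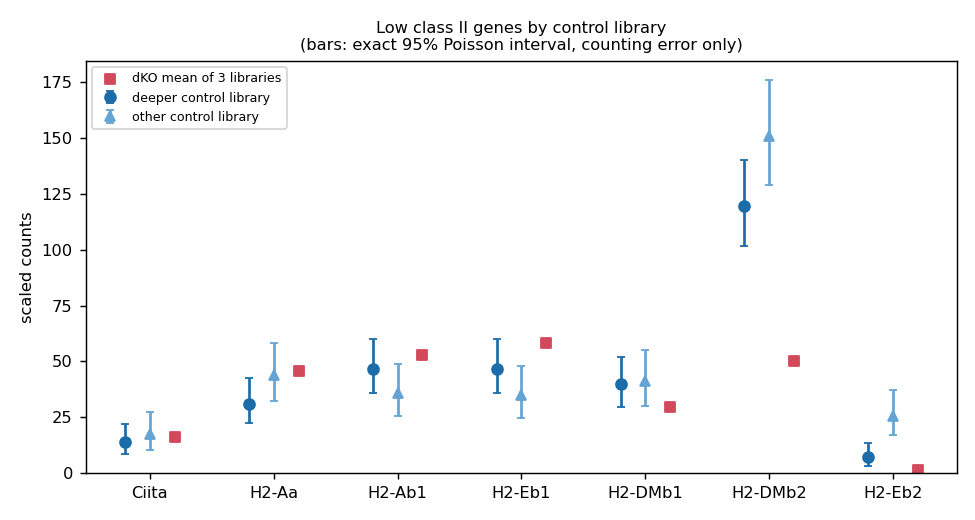
Scaled counts of low class II genes in each of the 2 control libraries (circles and triangles, bars for the exact 95% Poisson interval of the reads) with the dKO mean of 3 libraries (squares). The dKO squares of H2-Aa, H2-Ab1 and H2-Eb1 lie above both control symbols, and those of H2-DMb1, H2-DMb2 and H2-Eb2 lie below both. How often such positions occur over all genes was not counted.

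The peptide-loading genes had values of the other sign in the replicated comparison. H2-DMa (ENSMUSG00000037649, chromosome 17, 34135182 to 34139101), the alpha chain of H2-DM, had 1872 scaled counts in control against 1452 in dKO (log2 -0.37, unadjusted p 0.354 in the authors' deposited table). In the pair it was higher in the library labelled dKO, 83.3 against 46.2 FPKM, so the sign differed between the comparisons. The authors' deposited q-value for that entry was 0.906, the lowest among the members. H2-DMb1 (ENSMUSG00000079547, 34153072 to 34160223), a beta chain of H2-DM, had 51 and 45 reads in the control libraries, or 39.6 and 41.2 scaled counts, and a dKO mean of 29.6. The dKO mean lay below both control libraries, and the deposited log2 fold change was -0.45 (unadjusted p 0.261). In the pair H2-DMb1 was again higher in the library labelled dKO, 1.56 against 0.513 FPKM.

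H2-DMb2, the second beta chain gene of H2-DM and no member, fell. It had 154 and 165 reads in the control libraries, or 120 and 151 scaled counts, and a dKO mean of 50.1, and the authors' deposited table gives a log2 fold change of -1.43 (adjusted p 7.21e-06). H2-DMb1 and H2-DMb2 transcripts share 22.7% of the 50-base stretches of H2-DMb1, so the division of reads between them is uncertain. Their sum went from 176 to 79.7 scaled counts, a log2 ratio of -1.14, so the lower value also held for both genes together. In the pair H2-DMb2 had 0.544 FPKM in the library labelled control and 1.18 in the library labelled dKO, the opposite sign. Counts of the other members are not shared in this way: 50-base stretches also found in other genes made up 0.488% for H2-Aa and 0% for Cd74, Ciita, H2-Ab1, H2-Eb1 and H2-DMa.

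Ciita (ENSMUSG00000022504, chromosome 16, 10488178 to 10527564), the coactivator of the whole set, had 18 and 19 reads in the control libraries, or 14.0 and 17.4 scaled counts. The dKO mean of 16.2 lay between them, and the deposited log2 fold change was 0.05 (unadjusted p 0.971). In the pair the gene had 0.144 FPKM in the library labelled control and 0.155 in the library labelled dKO. Ciita was thus the member with the smallest difference in either comparison. It overlaps Dexi on the other strand, which had 804 scaled counts in control against 687 in dKO, and no label or header says whether reads were counted by strand.

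**Figure D3:**
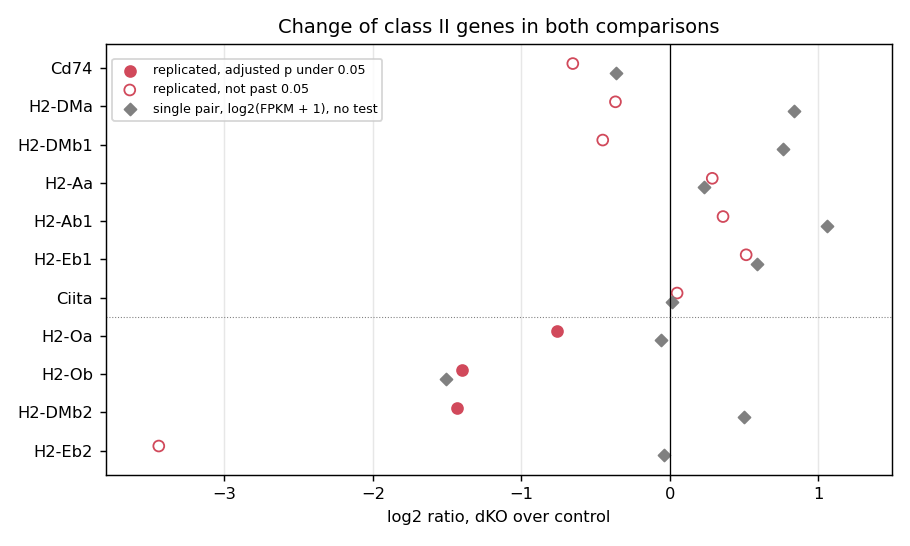
Log2 ratio of dKO over control for 7 members (above the dotted line) and 4 further class II genes, from the authors' deposited table (circles, filled past an adjusted p of 0.05) and from the pair (diamonds, log2(FPKM + 1), no test). No member has a filled circle, while H2-Oa, H2-Ob and H2-DMb2 do, and H2-DMa, H2-DMb1 and H2-DMb2 have circle and diamond on opposite sides of 0.

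Beyond the members, 21 genes that load, process, turn over or regulate class II molecules, or read them, were listed. By the authors' deposited table, 6 of these fell in dKO, 1 rose and 14 missed the threshold, where 3.18% of all genes tested fell and 3.38% rose, or 6.48% and 6.8% of those averaging at least 10. The list's median log2 ratio was -0.19, or -0.05 for its 19 members averaging at least 10, against -0.01 over all such genes. The falls included both chains of H2-O, the inhibitor of H2-DM. H2-Ob stood at 1341 scaled counts in control against 507 in dKO (log2 -1.40, adjusted p 3.98e-19), and H2-Oa at 1074 against 634 (log2 -0.76, adjusted p 0.002), in the authors' deposited table. In the pair H2-Ob had 18.4 FPKM in the library labelled control and 5.84 in the library labelled dKO, a log2(FPKM + 1) difference of -1.50, while H2-Oa had 35.9 and 34.4. H2-Ob was thus lower in dKO in the replicated comparison and lower in the library labelled dKO of the pair, a direction that holds only if the titles do. H2-Oa overlaps the antisense gene BC051537, which had 24.0 scaled counts in control against 15.8 in dKO.

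The other falls were in genes of protein breakdown and surface stability. Ctss, the cathepsin that trims the invariant chain, was at 9683 scaled counts in control against 6024 in dKO, per the authors' deposited table, with a log2 fold change of -0.68 (adjusted p 3.7e-05). Lgmn, an asparaginyl endopeptidase of lysosomes, was at 989 against 572 there (log2 -0.79, adjusted p 5.31e-06). Cd83, which protects surface class II from ubiquitin-driven removal, went from 5606 to 2860 scaled counts (log2 -0.97, adjusted p 0.0092) in the authors' deposited table. In the pair all 3 were also lower in the library labelled dKO, at 178 against 245 FPKM for Ctss, 7.16 against 16.1 for Lgmn and 47.0 against 64.0 for Cd83. March1, the ubiquitin ligase that Cd83 opposes, had 14 reads in each control library and 6, 5 and 5 reads in the dKO libraries, or 10.9 and 12.8 against 6.46, 5.49 and 5.82 scaled counts. March1 missed the threshold of the authors' deposited table (unadjusted p 0.213). H2-Eb2, an E beta gene next to H2-Eb1, had 9 and 28 reads in the control libraries and 1, 1 and 2 in the dKO libraries. In scaled counts these are 6.997 and 25.6 against 1.08, 1.10 and 2.33, and the authors' deposited p was 0.0294, or 0.257 adjusted. Its log2 fold change was -3.44, or -2.22 without the control library that held 28 of the reads.

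Of the regulators that sit on class II promoters, 1 passed the test. Nfyb, a subunit of the NF-Y factor that binds the Y box, rose in the authors' deposited table, where control had 2445 scaled counts and dKO 3302 (log2 0.43, adjusted p 0.0273). The other NF-Y subunits, Nfya (0.11) and Nfyc (0.06), and the X box factors Rfx5 (-0.19), Rfxap (-0.02), Rfxank (-0.05) and Creb1 (-0.00) did not pass there. In the pair Nfya had 27.2 FPKM in the library labelled control and 15.01 in the library labelled dKO, a log2(FPKM + 1) difference of -0.81 and thus of the other sign. Of its 2 transcript entries, 1 went from 10.8 to 0.000226 FPKM and the other from 16.4 to 15.01. Unlike Ciita, the RFX and NF-Y genes were well expressed, with between 328 and 960 scaled counts per kilobase in control. Of 13 genes of interferon gamma signalling and of Ciita transcription, the authors' deposited table has 3 that rose, 1 that fell and 9 that missed the threshold, with a list median of 0.33, or 0.20 for the 12 averaging at least 10. Beside them, 3.38% of all genes tested rose and 3.18% fell, or 6.8% and 6.48% of those averaging at least 10. Irf8, a factor of myeloid and B cells, was at 1217 in control against 3775 in dKO, in scaled counts of the authors' deposited table, a log2 fold change of 1.63 (adjusted p 1.53e-06). Irf1, induced by interferon gamma, was at 8407 against 12285 there (log2 0.55, adjusted p 0.0413). The pair also had more Irf8 in the library labelled dKO, 46.2 against 20.8 FPKM. Irf1, Irf8, Ctss and H2-Oa carry a mark for confounded counts in the authors' deposited table, taken here to mean overlap with another gene, as do Cd74 and Ciita. Prdm1, a known repressor of Ciita, went from 1179 to 2053 (adjusted p 0.0124), and the receptor chain gene Ifngr2 from 2042 to 1484 (log2 -0.46, adjusted p 0.0134), in the authors' deposited table.

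The class I pathway, which shows peptides from inside the cell, was set beside the members. Of 17 class I genes, 1 rose (Tapbpl, 3383 to 5540 scaled counts, adjusted p 0.0125) and 0 fell by the authors' DESeq test, as given in the authors' deposited table. At an unadjusted p under 0.05 these counts were 5 and 0, where 13.5% of all genes tested passed in either direction. All 17 averaged at least 10, and of such genes 6.8% rose and 6.48% fell. The median log2 ratio was 0.18. H2-K1 had 152445 scaled counts in control against 142388 in dKO, and B2m 104470 and 100805. At the class II region (chromosome 17, 34092340 to 34344645), 20 genes were listed, 15 of them protein-coding, and 18 had a p. Of these 18, 3 fell (H2-Oa, H2-DMb2 and H2-Ob) and 0 rose by the authors' deposited test (at an unadjusted p under 0.05, Psmb9 was higher and H2-Eb2 lower), where 3.18% of all genes tested fell and 3.38% rose. The genes that fell were not neighbours as a block: H2-DMa and Brd2 lie between H2-Oa and H2-DMb2, and H2-DMb1 and the Psmb9, Tap1, Psmb8 and Tap2 group lie between H2-DMb2 and H2-Ob.

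**Figure D4:**
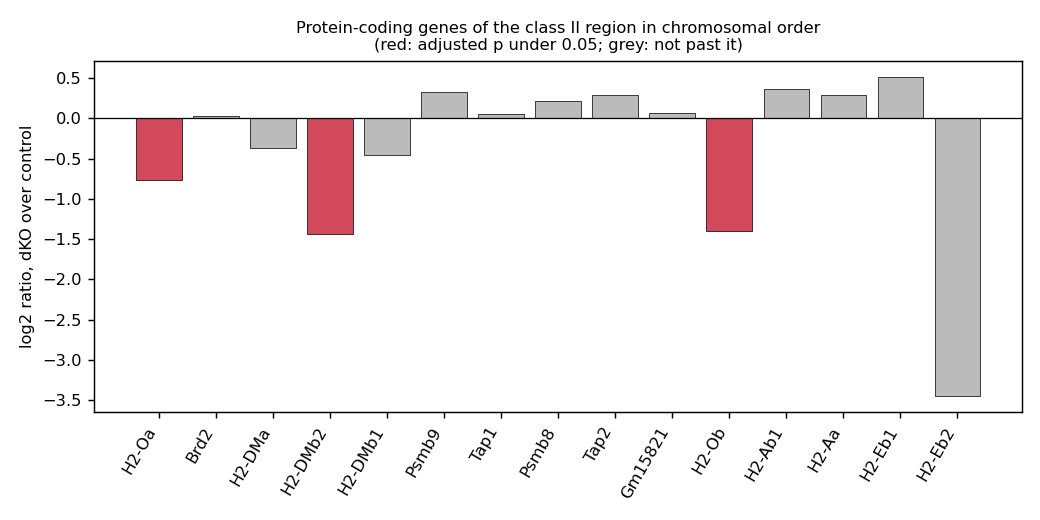
Log2 ratio of dKO over control in the authors' deposited table for the 15 protein-coding genes of the class II region in chromosomal order from H2-Oa to H2-Eb2. Red bars (H2-Oa, H2-DMb2, H2-Ob) passed an adjusted p of 0.05, and grey bars did not; H2-Eb2, at -3.44, rests on 4 dKO reads.

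Because B cells, dendritic cells and macrophages express class II strongly, their markers were measured beside the members. The B cell marker Ms4a1 had 1.76 scaled counts in control against 1.47 in dKO. Its reads were 1 and 3 in the control libraries and 2, 1 and 1 in the dKO libraries, so this gene was near 0 in every numbered library. Other genes of the B cell list were not: Cd79b had 894 scaled counts in control against 1006 in dKO, Cd22 172 and 266, and Cd79a 71.2 and 51.1, with 82 and 86 reads of Cd79a in the control libraries. Per kilobase in control, Cd79b (625), Cd79a (48.9) and Cd22 (39.8) lay above H2-Eb1 (34.6), the highest of the surface chain genes. The 12 B cell markers summed to 18507 scaled counts in control and 76183 in dKO, nearly all of it Ighm (17317 and 74808). Of these 12, 1 rose (Ighm) and 0 fell by the authors' DESeq test (1 and 0 at an unadjusted p under 0.05), and 0 were at 0 in either group. Over all genes tested, 3.38% rose and 3.18% fell, or 6.8% and 6.48% of those averaging at least 10. An unadjusted p under 0.05 was reached by 13.5% of all genes tested. The same shares stand beside the dendritic cell and myeloid counts that follow. The dendritic cell markers Itgax (2.22 and 5.95) and Flt3 (10.8 and 17.8) were low in both groups. The 12 dendritic cell markers summed to 3865 and 3339, mostly Cst3 (2054 per kilobase in control) and Ccr9 (220), with 1 fall (Xcr1, 47.0 to 13.3, adjusted p 0.0012) and 0 rises by the authors' DESeq test (2 and 0 at an unadjusted p under 0.05), and Clec9a was at 0 in control. Of the myeloid markers, Lyz2 (25.3 and 21.2 scaled counts, 19.99 per kilobase in control) was near H2-Aa. Per kilobase in control, Ms4a6c (278) and Cd68 (73.8) were higher than all 3 surface chain genes. All other myeloid markers were lower than all 3 on that scale: Itgam (11.6), Tyrobp (10.6), Csf1r (4.63), Fcer1g (3.83), Cd14 (1.62), Emr1 (0.62) and Fcgr1 (0.30). Of 10 myeloid markers in the table, 0 passed the authors' DESeq test (1 at an unadjusted p under 0.05), and they summed to 742 and 726. In the deeper and the other control library, Lyz2 had 18 and 40 reads while H2-Aa had 40 and 48 and H2-Ab1 had 60 and 39.

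Of 7 plasma cell markers, 1 rose (Mzb1, 11.2 to 905 scaled counts, adjusted p 1.37e-11) and 0 fell by the authors' DESeq test. Over all genes tested, 3.38% rose and 3.18% fell, or 6.8% and 6.48% of those averaging at least 10. At an unadjusted p under 0.05 the plasma cell counts were 3 and 1, where 13.5% of all genes passed in either direction. Tnfrsf17 was at 0 in dKO, and the plasma cell list summed to 6759 and 10173. The part of any such cells in the levels of the surface chain genes was not tested. In sorted bulk samples, fewer cells of a type and less RNA per cell cannot be told apart. Genes of the sort gate were abundant in both groups, with Foxp3 at 13481 and 10942, Il2ra at 32376 and 32126 and Cd4 at 26431 and 32790 scaled counts.

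**Figure D5:**
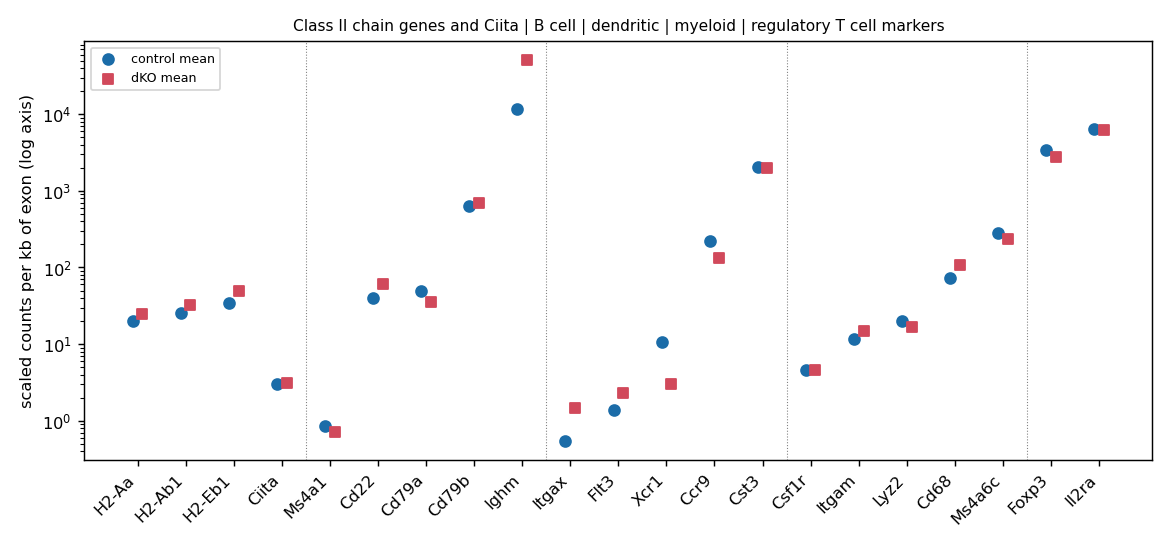
Control means (circles) and dKO means (squares) in scaled counts per kilobase of exon, on a log axis, for the surface chain genes and Ciita and for chosen markers of B cells, dendritic cells, myeloid cells and regulatory T cells. Ms4a1, Itgax and Flt3 lie below H2-Aa, H2-Ab1 and H2-Eb1 and Lyz2 is near H2-Aa in control, while Cd22, Cd79b, Ighm, Ccr9, Cst3, Cd68 and Ms4a6c lie above all 3 in both groups and Cd79a in control.

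Genes with a similar pair of ratios were looked up by a fixed rule. The centre was the median of H2-Aa, H2-Ab1 and Cd74 in each comparison, 0.29 in the replicated table and 0.23 in the pair. In both comparisons that median was the value of H2-Aa itself, so the genes found are the neighbours of H2-Aa. Likeness was the distance over these 2 log2 ratios among 9637 genes. The nearest 5 were Pde8a, Commd1, Zdhhc21, Hnrnph1 and Pabpc4, at distances of 0.0056 to 0.0083. With only 2 ratios per gene, such closeness describes size of difference alone, and Cd74 itself had both ratios of the other sign.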

How the data were processed

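Messenger RNA of sorted regulatory T cells was sequenced in 7 libraries. For the 5 numbered libraries the authors deposited group means as a signal of scaled counts, log2 fold changes, and raw and Benjamini-Hochberg adjusted p-values. Per the submitters' processing notes, RSEM and DESeq (no versions given) were used on mm10 (GRCm38). The header names these means raw counts, but they are fractional. For the pair, the authors deposited FPKM and q-values per RefSeq transcript from Cuffdiff 0.0.6 after TopHat 1.4.0 on mm9, per the submitters' processing notes.

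Tests on counts per library could not be run on group means, so the authors' test was used at an adjusted p of 0.05. Recomputed log2 ratios differed from the deposited ones by at most 0.000193 (control means above 1) and adjusted p-values by at most 0.00124. Reads per library were recovered where a single whole-number combination gave the mean within 6e-05. Of 17914 control means up to 100, 100% were whole reads. In simulated control means up to 500, 100% of recovered combinations were correct. Means of Cd74, H2-DMa, H2-Oa and H2-Ob, and dKO means of the members, had several combinations and are not split. Labels do not tell which replicate number a recovered library has. FPKM of all entries with the same symbol were added (97.5% of entries matched a symbol), with a pseudocount of 1, which understates changes of low genes. The pair's depth is unknown. Where a symbol repeats, the row with the higher mean was used. Of 105 listed symbols, 104 matched; the other, Adgre1, is listed under its older name Emr1.

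The genes named are the 7 members, the pathway and regulator genes past the threshold, the markers with the smallest p or highest level and the defining ones, and the 5 nearest genes. H2-Eb2, March1, Nfya, Nfyc, the RFX genes, Creb1, Cd79a, Cd79b and Cd22 were added after their values were seen. So were the myeloid markers Itgam, Cd68, Ms4a6c, Tyrobp, Fcer1g, Cd14, Emr1 and Fcgr1. Members and lists were chosen with earlier results of these data known. Python 3.11.15, pandas 2.3.3 and scipy 1.17.1 were used.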

Additional observations from a re-analysis of the deposited data

How the results depend on the processing

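The count of 0 members past the threshold held when p-values were adjusted over genes with a mean of 10 or more and at an adjusted p of 0.1. The count was also 0 without genes marked as overlapping. That setting leaves out Cd74 and Ciita, so it gives no check on Cd74, the single member with an unadjusted p under 0.05. An unadjusted p under 0.05 gave 1 member. In the pair, 1 member passed 2-fold, 2 did with a pseudocount of 0.1 FPKM and 4 at a threshold of 1.5-fold. The counts of pathway, regulator and class I genes that rose or fell stayed within 1.5 times under the adjustment over genes with a mean of 10 or more and at an adjusted p of 0.1. Leaving out either control library moved the log2 ratios of H2-Aa (0.06 to 0.56), H2-Ab1 (0.18 to 0.56) and H2-Eb1 (0.32 to 0.74). Of 67 gene values under alternatives for 20 genes, 66 kept their sign. That count was largely fixed in advance. The other adjustment and the removal of marked genes change only the p-value and leave the log2 ratio as it was. Scaling to CPM shifted each log2 ratio by the same -0.04, too little to turn any of them. Only leaving out a control library could turn a sign. It did so for Ciita, whose log2 ratio was -0.10 without the deeper control library and 0.21 without the other. Leaving out a dKO library, edgeR and DESeq2 were not run, because the deposited table holds group means. No paired analysis was possible because the deposited columns are means over the libraries of a group. Reads of the surface chain genes, 38 to 60 per control library, limit what can be detected.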
